A study of Mus musculus with 9 samples.

Results

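Interferon response genes were followed in tomato-positive cells sorted from the mouse tibial periosteum before and after fracture. The 41 genes were taken by name from the known targets and mediators of the interferon pathway, through the gene symbols that the array platform gives its probes. Of these, 40 had a probe, among 16593 gene symbols on the array, and 34 passed the detection filter, among 10073 genes that passed it. Ifi44 had no probe under that symbol, and the probes of Ifih1, Iigp1, Mx1, Ifit1, Oas1a and Xaf1 were detected on 0 of the 9 arrays.

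All mice carried the αSMACreERT2 transgene and the Ai9 reporter on the B6;129S6 background, and all received 2 doses of tamoxifen at 75 µg/g. In this model the alpha smooth muscle actin promoter drives a tamoxifen-activated Cre, and Ai9 then makes tomato protein permanently in the cells in which Cre was active and in their descendants. The unfractured pools were collected 2 days after tamoxifen from mice 4 to 5.5 months old, 8 or 9 animals per pool. The day 2 pools came from fractured tibiae of mice 2 to 5.5 months old, 7 or 8 animals per pool, collected 2 days after fracture. The day 6 pools came from periosteum and soft callus of mice 3 to 5.5 months old, 4 to 8 animals per pool, collected 6 days after fracture. Each group held 3 pools, 2 of males and 1 of females, and each pool was 1 array. No unfractured pools were collected at day 6, so the effects of injury and of time after tamoxifen cannot be told apart between the day 6 and unfractured pools.

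Type I interferons signal through the receptor chains Ifnar1 and Ifnar2 and the kinases Jak1 and Tyk2, which activate a complex that holds Stat2 and Irf9. That complex binds the interferon-stimulated response element (ISRE) in the promoters of antiviral genes. Interferon gamma signals through Ifngr1 and Ifngr2 to the gamma-activated site (GAS) of promoters, and its strong targets include Irf1, guanylate-binding proteins, immunity-related GTPases, the immunoproteasome and the chemokines Cxcl9 and Cxcl10.

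The pools differed in their content of other cells, and values are therefore given for each pool, always in the order pool 1, pool 2, pool 3. Acta2, the gene of the labelling promoter, was at 16.07, 16.09 and 15.57 in unfractured pools, 14.11, 15.75 and 15.93 in day 2 pools, and 14.09, 15.27 and 15.22 in day 6 pools (log2 intensity). All its day 6 pools lay below all unfractured pools, with a log2 change of -1.05 ± 0.52 (limma adjusted p = 0.290). Averaged over 23 macrophage and pan-leukocyte markers, the log2 intensity was 7.41, 6.71 and 10.31 in unfractured pools, 11.76, 7.61 and 8.13 in day 2 pools, and 10.11, 7.38 and 7.73 in day 6 pools. In each group 1 pool thus stood apart, namely unfractured pool 3, day 2 pool 1 and day 6 pool 1, all of males. These are called the leukocyte-rich pools here. The neutrophil markers did not follow the same order in every group, since the mean of 11 of them was 12.28, 10.23 and 12.09 in unfractured pools, 13.94, 9.91 and 10.11 in day 2 pools, and 11.88, 9.43 and 9.86 in day 6 pools. Unfractured pool 1, which is not among the leukocyte-rich pools, was thus as high in them as unfractured pool 3. The filter kept 10 of 15 macrophage marker symbols, 13 of 13 pan-leukocyte markers and 11 of 13 neutrophil markers. Of the macrophage markers, Cd68, Csf1r, Mpeg1 and Msr1 were not kept. The other symbol without a kept probe, Emr1, is an older name of Adgre1, which was listed too and was kept. The filter kept 2 of 12 T and NK cell markers, 1 of 7 B cell markers and 2 of 9 dendritic cell markers. The mean of 10 endothelial markers was 11.39, 11.05 and 9.94 in unfractured pools, 9.68, 9.44 and 8.46 in day 2 pools, and 10.32, 8.21 and 8.75 in day 6 pools. The mean of 10 pericyte and smooth muscle markers was 12.17, 11.90 and 10.20 in unfractured pools, 8.98, 11.25 and 10.77 in day 2 pools, and 9.66, 10.15 and 9.92 in day 6 pools. The share of probes detected was 40.4 to 50.7% in unfractured pools, 50.4 to 55.2% in day 2 pools and 52.1 to 54.5% in day 6 pools.

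**Figure D1:**
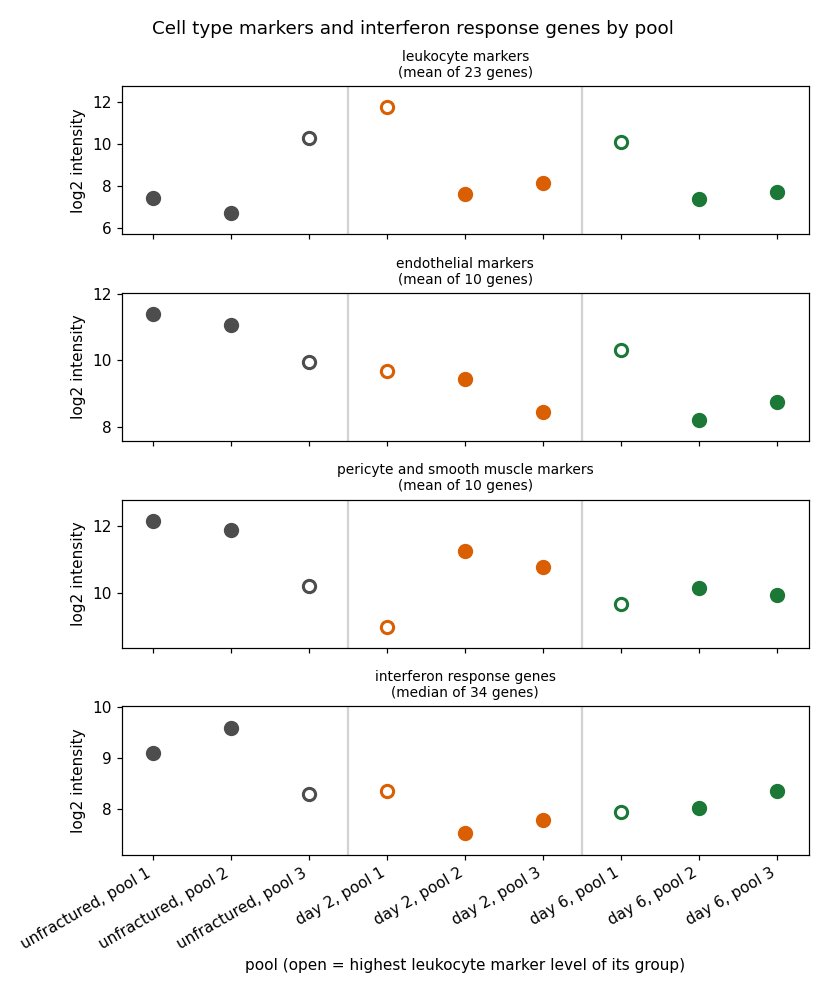
Mean log2 intensity of leukocyte, endothelial, and pericyte and smooth muscle markers, and the median log2 intensity of the 34 interferon response genes (vertical axes), in each of the 9 pools (horizontal axis). Open circles mark the leukocyte-rich pool of each group. The median of the interferon response genes was 8.29 to 9.59 in unfractured pools, 7.52 to 8.35 in day 2 pools and 7.94 to 8.35 in day 6 pools.

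Most interferon response genes had a lower mean after fracture than in unfractured periosteum, with the largest differences at day 2 in Ifi47, Mx2, Gbp2 and Cxcl9, but 1 gene, Ifi47, passed the test. A gene passed where the limma fit over all 10073 genes and 9 arrays gave an adjusted p under 0.05. At day 2, 0 of 34 genes passed, as did 0% of all genes, and the lowest adjusted p among the 34 (limma) was 0.139. At an unadjusted p under 0.05 (limma), 11 of the 34 were lower at day 2 and 0 were higher, where 7.02% of all genes were lower and 9.11% were higher. In 9 of the 34 (26.5%) every day 2 pool lay below every unfractured pool, against 7.69% of all genes, and in 0 did every day 2 pool lie above, against 10.9% of all genes. The 9 were Ifi47, Igtp, Gbp2, Gbp3, Cxcl9, Cxcl10, Irf9, Oasl2 and Rtp4. The log2 change was below 0 in 28 of 34 (82.4%), against 45.7% of all genes, with a median of -0.63 against 0.06.

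At day 6, 1 of 34 genes passed, Ifi47, against 2.82% of all genes, of which 0.625% of all genes were called lower and 2.19% higher. At an unadjusted p under 0.05 (limma), 10 of the 34 were lower (8.94% of all genes) and 1, Isg20, was higher (12% of all genes). In 11 of the 34 (32.4%) every day 6 pool lay below every unfractured pool, against 11.8% of all genes, and in 0 did every day 6 pool lie above, against 14.2%. The 11 were Ifi47, Igtp, Gbp2, Irf9, Irf1, Ddx58, Rtp4, Parp14, Ifi35, Psmb8 and Psmb9. Ifi47, Igtp, Gbp2, Irf9 and Rtp4 were in both sets, 5 of the 9 at day 2 and 5 of the 11 at day 6. Both sets were read against the same 3 unfractured pools. The log2 change at day 6 was below 0 in 27 of 34 (79.4%), against 47.4% of all genes, with a median of -0.64 against 0.04. Each of the 34 genes was detected in at least 1 pool of every group and on 6 or more of the 9 arrays.

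These directions are relative to the other genes on the array. With median scaling in place of quantile normalisation, the median change of all genes was itself 0.83 at day 2 and 0.72 at day 6, and the median of the 34 turned positive, at 0.13 and 0.24. Set against that shift it was -0.69 at day 2 and -0.47 at day 6, and 30 of 34 genes lay below the median of all genes at each time. Under that scaling every fractured pool lay below every unfractured pool in 2 of 34 genes at day 2 (1.99% of all genes) and in 2 at day 6 (3.32%), Ifi47 and Rtp4 both times. Every fractured pool lay above every unfractured pool in 1 gene at day 2, Psmb9 (27.8% of all genes), and in 1 at day 6, Isg20 (25.6%).

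**Figure D2:**
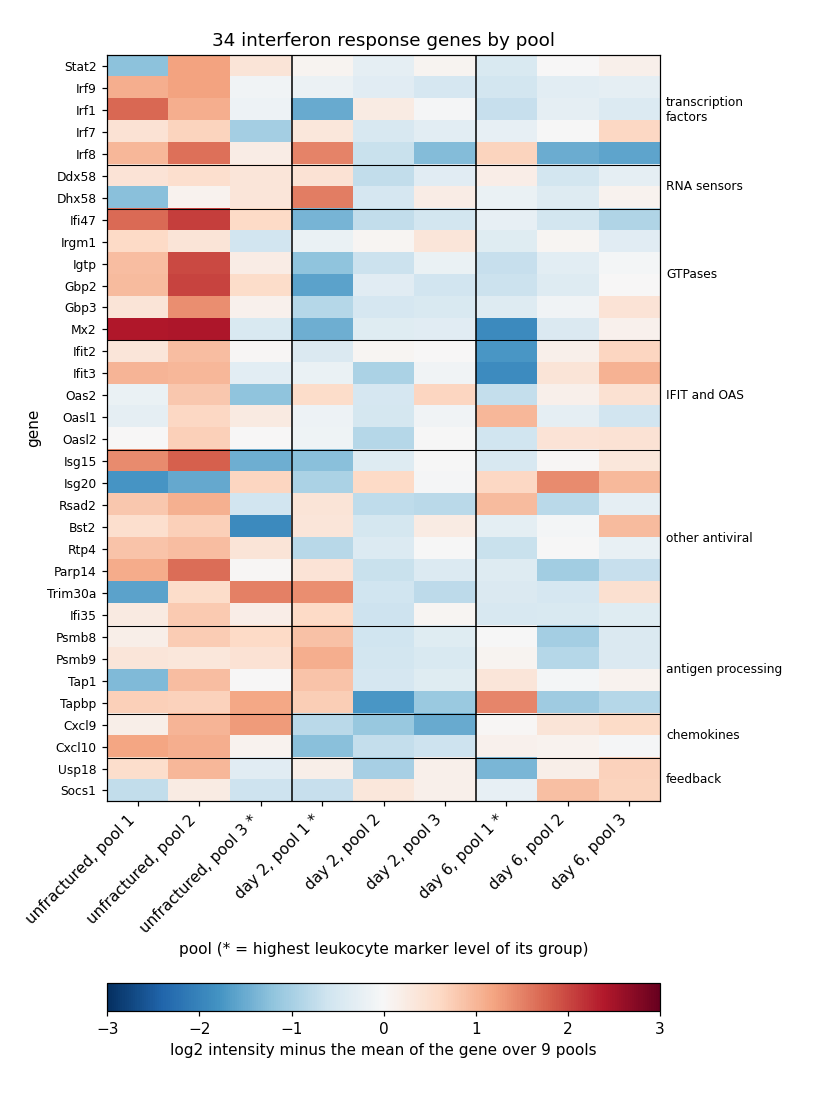
Log2 intensity of each of the 34 interferon response genes (rows, grouped by role) in each of the 9 pools (columns), minus the mean of the gene over the pools. Red is above and blue below that mean; stars mark the leukocyte-rich pools. Unfractured pools 1 and 2 hold most of the red cells of the GTPases, Irf1, Irf9, Isg15, Parp14 and Cxcl10, while unfractured pool 3 is near or below the mean for many genes.

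**Figure D3:**
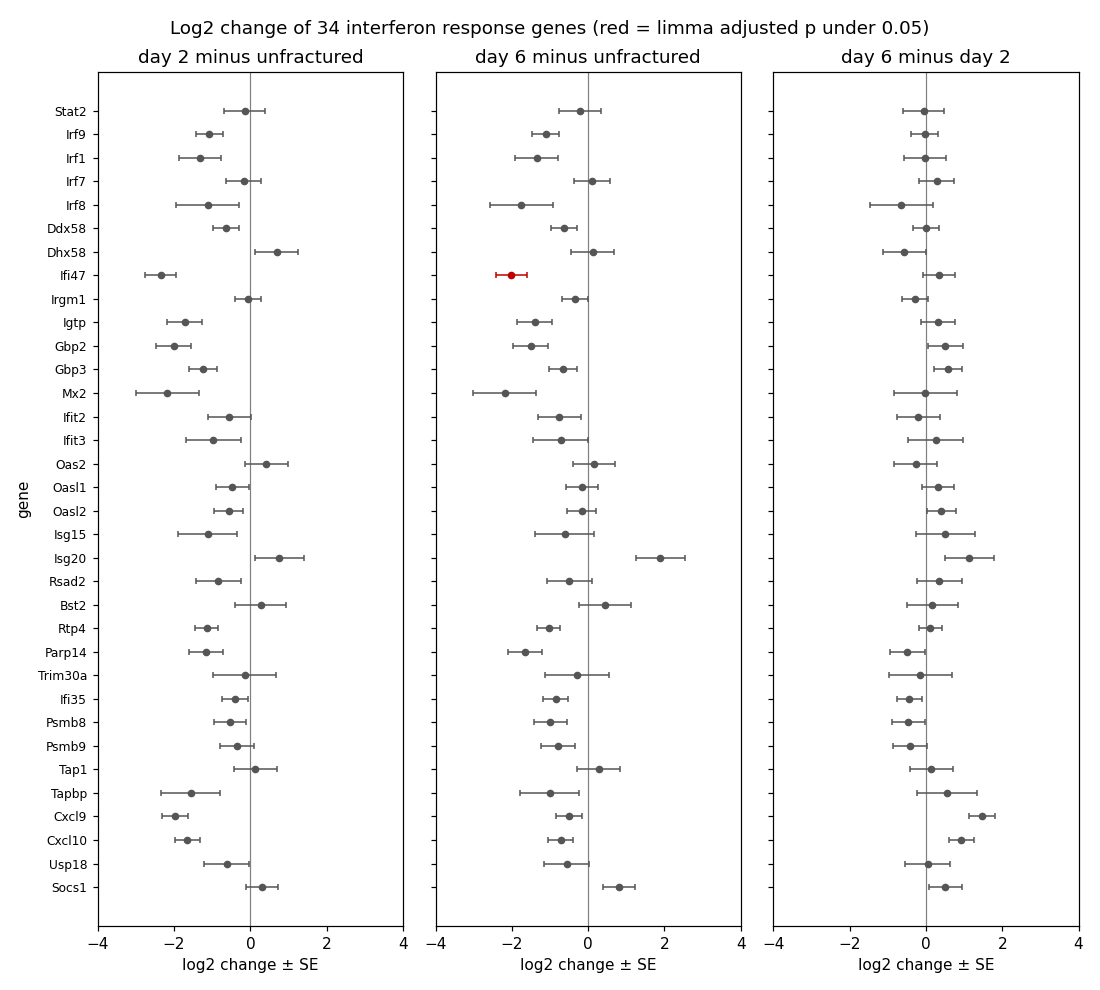
Log2 change (horizontal axis; point and SE from the limma fit) of each of the 34 genes (vertical axis) for day 2 minus unfractured, day 6 minus unfractured and day 6 minus day 2. Red marks the single adjusted p under 0.05, that of Ifi47 at day 6 (log2 change -2.01).

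The immunity-related GTPases and guanylate-binding proteins, interferon-inducible proteins known to attack the vacuoles of intracellular pathogens, included 3 of the 5 genes with the largest differences at day 2, Ifi47, Gbp2 and Igtp. Of 8 GTPases in the set 6 were measured. Ifi47, an immunity-related GTPase, was at 9.95, 10.31 and 8.84 in unfractured pools, 6.85, 7.51 and 7.68 in day 2 pools, and 8.01, 7.70 and 7.35 in day 6 pools (log2 intensity). Every unfractured pool was above every fractured pool. The log2 change was -2.35 ± 0.41 (SE) at day 2, a 5.11-fold lower level (limma adjusted p = 0.139), and -2.01 ± 0.41 at day 6, a 4.03-fold lower level (limma adjusted p = 0.0411). The size and the call rest on the settings. Over 19 alternatives the log2 change ran from -2.78 to -1.31 at day 2 and from -2.60 to -1.13 at day 6, where the smallest, under median scaling, is a 2.18-fold lower level. Its adjusted p (limma) at day 6 ran from 0.00328 to 0.190 over them and stayed under 0.05 in 8 of them. The 8 include the fit without the leukocyte-rich pools, which was chosen after the values had been seen. Leaving that fit aside, it was under 0.05 in 7, and the lowest was 0.00659. It was 0.121 without unfractured pool 1, 0.123 without unfractured pool 2, 0.0763 and 0.0700 without day 2 pool 2 or 3, and 0.0565, 0.168 and 0.190 without day 6 pool 1, 2 or 3. Igtp, another GTPase of this family, was at 9.92, 10.96 and 9.20 in unfractured pools, 7.78, 8.35 and 8.78 in day 2 pools, and 8.28, 8.66 and 8.92 in day 6 pools. Unfractured pools again lay above all others, with log2 changes of -1.72 ± 0.46 at day 2 (limma adjusted p = 0.197) and -1.41 ± 0.46 at day 6 (0.133).

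Gbp2, a guanylate-binding protein, was at 12.45, 13.51 and 12.03 in unfractured pools, 9.88, 11.16 and 10.92 in day 2 pools, and 10.84, 11.11 and 11.51 in day 6 pools. The groups did not overlap at either time, and the log2 change was -2.01 ± 0.46 at day 2 (limma adjusted p = 0.182) and -1.51 ± 0.46 at day 6 (0.116). Gbp3, its neighbour in the genome, was at 10.33, 11.33 and 10.07 in unfractured pools, 9.09, 9.44 and 9.49 in day 2 pools, and 9.56, 9.85 and 10.37 in day 6 pools. Its day 2 pools were below all others, while its day 6 pools overlapped the unfractured ones. Mx2, a dynamin-like antiviral GTPase, was at 9.95, 9.96 and 7.08 in unfractured pools, 6.08, 7.18 and 7.20 in day 2 pools, and 5.63, 7.12 and 7.67 in day 6 pools. Only unfractured pools 1 and 2 were high, and the third lay among the fractured pools, so that the log2 changes of -2.17 ± 0.83 and -2.19 ± 0.83 had adjusted p-values (limma) of 0.271 and 0.181. The probes of Irgm1, a regulator of this GTPase family, disagreed. The brighter one gave -0.06 at day 2 and -0.34 at day 6, while the dimmer one, at 10.97, 11.31 and 8.42 in unfractured pools, 8.26, 8.38 and 8.08 in day 2 pools, and 7.96, 8.43 and 8.90 in day 6 pools, gave -1.99 and -1.80.

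The ISRE letters occur in the promoters of several of these genes, and the stretches that hold them are shown for the 8 genes with the largest changes among those with a match. The promoters are RefSeq sequences of GRCm38.p6, from 250 bases before to 50 after the transcription start, and 33 of the 41 genes had an entry. Capitals mark GAAA, any 2 bases and GAAA, or the reverse complement, TTTC, any 2 bases and TTTC, and each line reads 5′ to 3′ on the strand of the gene.
Gbp2 (chr3:142620589-142620628, plus strand, -74 to -35 from the start): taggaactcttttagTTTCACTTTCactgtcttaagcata
Igtp (chr11:58199507-58199546, plus strand, -49 to -10): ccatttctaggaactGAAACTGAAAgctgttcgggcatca
Cxcl10 (chr5:92349078-92349117, minus strand, -228 to -189): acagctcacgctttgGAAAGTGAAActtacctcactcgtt
Gbp3 (chr3:142559984-142560029, plus strand, -60 to -15): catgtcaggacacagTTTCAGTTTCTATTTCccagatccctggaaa
Isg15 (chr4:156200860-156200911, minus strand, -93 to -42): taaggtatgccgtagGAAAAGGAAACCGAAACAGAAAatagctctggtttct
Ifit3 (chr19:34583358-34583431, plus strand, -171 to -98): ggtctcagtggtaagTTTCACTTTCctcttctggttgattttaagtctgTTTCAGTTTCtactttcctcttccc
Rsad2 (chr12:26456548-26456587, minus strand, -135 to -96): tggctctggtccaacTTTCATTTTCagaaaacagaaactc
Socs1 (chr16:10785589-10785634, minus strand, -98 to -53): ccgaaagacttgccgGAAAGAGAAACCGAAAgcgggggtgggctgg

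Isg15 holds 3 overlapping matches, Gbp3 and Socs1 hold 2 overlapping ones each, and Ifit3 holds 2 that are apart. Over both strands the ISRE letters were in 17 of 41 promoters of the set (41.5%), belonging to 16 of 33 genes, against 3.44% of 32851 promoters in the table. The GAS letters TTCNNNGAA, which read alike on both strands, were in 9 of 41 promoters (22.0%), against 8.3% of all. Both shares belong to a set chosen by name from known interferon targets and mediators, so they are no result of these arrays. Of the 9 genes whose day 2 pools all lay below the unfractured pools, 4 of 8 with a promoter entry held the ISRE letters, against 9 of 20 among the other measured genes. Ifi47, Cxcl9, Irf1, Irf9 and Isg20 had no ISRE match in this window. No entry was found for Dhx58, Iigp1, Mx1, Mx2, Oas2, Parp14, Rtp4 and Usp18.

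The chemokines Cxcl9 and Cxcl10, interferon-induced ligands of Cxcr3 that draw in T and NK cells, were lowest at day 2. Cxcl9 was at 9.09, 9.96 and 10.21 in unfractured pools, 8.13, 7.80 and 7.41 in day 2 pools, and 8.96, 9.31 and 9.49 in day 6 pools. Every day 2 pool was below every pool of the other groups, while the day 6 and unfractured pools overlapped. Its log2 change was -1.98 ± 0.34 at day 2 (limma adjusted p = 0.139) and -0.50 ± 0.34 at day 6 (0.444). Cxcl10 was at 10.83, 10.75 and 9.77 in unfractured pools, 8.41, 8.95 and 9.05 in day 2 pools, and 9.78, 9.77 and 9.62 in day 6 pools. Its 3 day 6 pools differed by less than 0.2 and reached only the lowest unfractured pool, and its log2 changes were -1.65 ± 0.33 at day 2 (limma adjusted p = 0.148) and -0.73 ± 0.33 at day 6 (0.250).

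Day 6 pools were set against day 2 pools as well, and 0 of the 34 genes passed, against 1.42% of all genes, 1.31% called higher and 0.109% lower. At an unadjusted p under 0.05 (limma), Cxcl9 and Cxcl10 were higher at day 6 and 0 were lower, where 7% of all genes were higher and 4.64% lower. Cxcl9 was 2.78-fold higher at day 6 than at day 2, a log2 change of 1.48 ± 0.34 (limma adjusted p = 0.0939, and 0.157 with the pool number as a block). Over 19 alternatives its adjusted p (limma) ran from 0.0431 to 0.634 and was under 0.05 in 2, without unfractured pool 1 and in a fit of those groups alone. Cxcl10 was 1.90-fold higher, a log2 change of 0.93 ± 0.33 (limma adjusted p = 0.301). All day 6 pools lay above all day 2 pools in 4 of 34 genes (11.8%), Cxcl9, Cxcl10, Gbp3 and Isg20, the same share as the 11.8% of all genes, and in 0 genes did all lie below, against 13.2%. The log2 change was below 0 in 14 of 34 (41.2%), against 54% of all genes, with a median of 0.13 against -0.04.

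**Figure D4:**
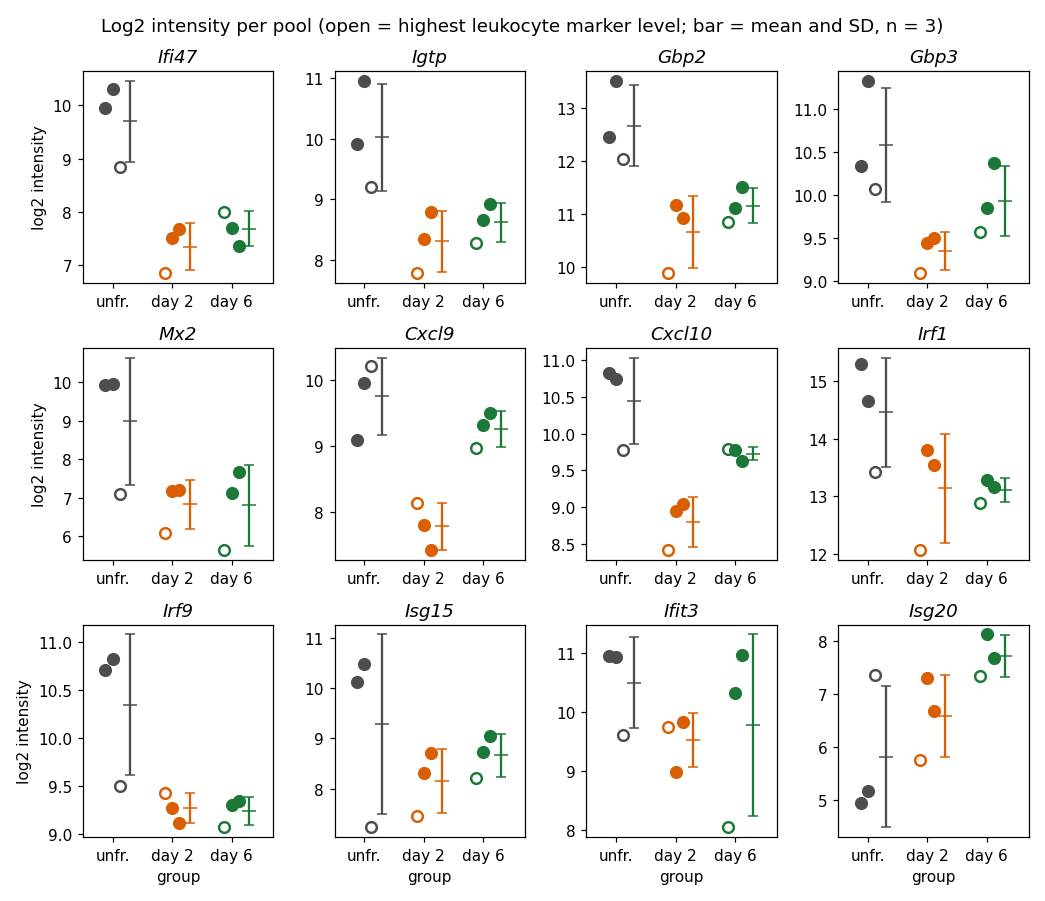
Log2 intensity (vertical axis) of 12 interferon response genes in each pool of unfractured, day 2 and day 6 periosteum (horizontal axis), with the mean and SD of each group (n = 3 pools). Open circles mark the leukocyte-rich pools. For Ifi47, Igtp and Gbp2 every unfractured pool is above every fractured pool, while for Mx2 and Isg15 unfractured pool 3 lies among or below the fractured pools.

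Among the transcription factors, Irf9, the DNA-binding partner of Stat2, was at 10.71, 10.83 and 9.51 in unfractured pools, 9.44, 9.27 and 9.12 in day 2 pools, and 9.07, 9.30 and 9.35 in day 6 pools. The groups did not overlap, though unfractured pool 3 exceeded the highest fractured pool by little, and the log2 change was -1.07 ± 0.35 at day 2 (limma adjusted p = 0.247) and -1.11 ± 0.35 at day 6 (0.127). Both of its probes gave groups that did not overlap at either time. Irf1, a gamma-induced activator of many of these genes, was at 15.29, 14.65 and 13.42 in unfractured pools, 12.06, 13.81 and 13.54 in day 2 pools, and 12.88, 13.29 and 13.16 in day 6 pools. Its 5 probes were lower at both times, by -1.32 to -2.15 at day 2 and by -1.35 to -2.33 at day 6, and the brightest, used here, gave the smallest difference. The log2 change of that probe was -1.32 ± 0.56 at day 2 (limma adjusted p = 0.30) and -1.35 ± 0.56 at day 6 (0.216). Over 19 alternatives the change at day 6 ran from -1.94, with the mean of its probes (limma adjusted p = 0.0287), to -0.49, under median scaling (0.626). Irf1 passed in 3 of them, and in 2 leaving aside the fit without the leukocyte-rich pools. Irf8, a factor of myeloid cells, was at 9.13, 9.78 and 8.37 in unfractured pools, 9.63, 7.46 and 6.84 in day 2 pools, and 8.81, 6.65 and 6.54 in day 6 pools. The highest fractured pools were the leukocyte-rich ones. Its log2 changes were -1.12 ± 0.83 at day 2 and -1.76 ± 0.83 at day 6, with adjusted p-values (limma) of 0.501 and 0.267.

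Stat2, the partner of Irf9, was at 6.32, 8.76 and 7.93 in unfractured pools, 7.64, 7.28 and 7.64 in day 2 pools, and 7.09, 7.56 and 7.71 in day 6 pools. The unfractured pools spanned all fractured pools, and its log2 changes were -0.15 ± 0.54 and -0.22 ± 0.54. Irf7, which amplifies type I interferon production, was at 7.13, 7.35 and 5.67 in unfractured pools, 7.02, 6.22 and 6.38 in day 2 pools, and 6.44, 6.69 and 7.31 in day 6 pools. Its groups overlapped as well, with log2 changes of -0.18 ± 0.47 at day 2 and 0.10 ± 0.47 at day 6.

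The cytosolic RNA sensor Ddx58 (RIG-I) had a log2 change of -0.64 ± 0.34 at each time, and its relative Dhx58 had 0.69 ± 0.57 at day 2 and 0.12 ± 0.57 at day 6. Both had adjusted p-values (limma) of 0.316 or more in the comparisons with unfractured pools. In the IFIT and OAS families, which bind foreign RNA or sense it, 5 of 7 genes were measured, and their log2 changes ran from -0.98 to 0.42 at day 2 and from -0.76 to 0.15 at day 6. Ifit3 was at 10.96, 10.94 and 9.61 in unfractured pools, 9.75, 8.99 and 9.84 in day 2 pools, and 8.04, 10.33 and 10.97 in day 6 pools. Day 6 pool 3 was as high as the highest unfractured pool, and day 6 pool 1, the leukocyte-rich one, was the lowest of all pools. Ifit2, Oas2 and Oasl1 overlapped between all groups, and Oasl2 was lower in every day 2 pool by -0.57 ± 0.38.

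Isg15, a ubiquitin-like modifier made in response to interferon, was at 10.12, 10.48 and 7.23 in unfractured pools, 7.46, 8.31 and 8.70 in day 2 pools, and 8.21, 8.74 and 9.05 in day 6 pools. Unfractured pool 3 was the lowest of the 9 pools and unfractured pools 1 and 2 were the highest, and the log2 changes were -1.12 ± 0.78 at day 2 and -0.61 ± 0.78 at day 6. Parp14, an ADP-ribosyltransferase, was at 10.99, 11.55 and 9.92 in unfractured pools, 10.28, 9.21 and 9.47 in day 2 pools, and 9.48, 8.83 and 9.18 in day 6 pools. Day 6 pools lay below all unfractured pools, with a log2 change of -1.65 ± 0.45 (limma adjusted p = 0.0907). Isg20, a 3′ to 5′ exonuclease that degrades RNA, went the other way. It was at 4.94, 5.16 and 7.35 in unfractured pools, 5.76, 7.30 and 6.67 in day 2 pools, and 7.32, 8.11 and 7.68 in day 6 pools. It was detected in 1 of 3 unfractured pools and in every fractured pool. The log2 change at day 6 was 1.89 ± 0.65 (limma adjusted p = 0.151), set against a group mostly at background. It ran from 0.69 to 2.85 over 18 alternatives, with 2.85 in the fit without the leukocyte-rich pools.

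Rtp4, an interferon-induced protein first known as a receptor transporter, was at 6.81, 6.89 and 6.34 in unfractured pools, 5.11, 5.55 and 5.93 in day 2 pools, and 5.27, 5.93 and 5.71 in day 6 pools. All fractured pools were below all unfractured ones, and the log2 change was -1.15 ± 0.30 at day 2 (limma adjusted p = 0.197) and -1.04 ± 0.30 at day 6 (0.107). Rtp4 was not detected in day 2 pool 1 or day 6 pool 1, so the size of these changes is uncertain. Ifi35 had a log2 change of -0.85 ± 0.33 at day 6, with groups that did not overlap. The lipid-droplet-associated enzyme Rsad2 (viperin), the tether of budding virions Bst2 (tetherin) and the ubiquitin ligase Trim30a overlapped between groups, with log2 changes between -0.84 and 0.43 at both times. Bst2 and Trim30a differed among the unfractured pools more than between groups, since Bst2 was at 8.56, 8.77 and 6.16 and Trim30a at 6.02, 8.19 and 9.15 there.

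The antigen-processing genes, which cut peptides and load them on MHC class I, were highest in the leukocyte-rich pool of each fractured group. Tapbp (tapasin), which holds class I molecules to the peptide transporter, was at 7.85, 7.84 and 8.30 in unfractured pools, 7.88, 5.40 and 6.03 in day 2 pools, and 8.61, 6.07 and 6.28 in day 6 pools. With that probe the leukocyte-rich pool was the highest in each group. The other probe of Tapbp that passed the filter was at 7.92, 7.70 and 6.93 in unfractured pools. There the leukocyte-rich pool was the lowest of the unfractured group, while it was the highest of each fractured group. Psmb8, an immunoproteasome subunit, was at 7.23, 7.81 and 7.65 in unfractured pools, 7.94, 6.45 and 6.70 in day 2 pools, and 7.04, 6.04 and 6.63 in day 6 pools. Psmb9, another subunit, was at 9.53, 9.52 and 9.63 in unfractured pools, 10.26, 8.63 and 8.73 in day 2 pools, and 9.26, 8.33 and 8.75 in day 6 pools. In both subunits day 2 pool 1 was the highest of all pools, and all day 6 pools lay below all unfractured pools. Their log2 changes at day 6 were -0.99 ± 0.43 and -0.78 ± 0.44, and Tap1, a chain of the peptide transporter, had 0.27 ± 0.57 (limma adjusted p = 0.233 or more for these genes). Of the feedback inhibitors, Usp18, which removes Isg15 from proteins, had log2 changes of -0.62 ± 0.59 and -0.57 ± 0.59, and Socs1, which blocks the Jak kinases, had 0.30 ± 0.43 and 0.81 ± 0.43, all with overlapping groups.

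The leukocyte-rich pools differed from the other pools of their groups in these genes, and not in the same direction in each group. In unfractured periosteum the leukocyte-rich pool was the lowest of its group in 22 of 34 genes (64.7%), against 38.4% of all genes, and the highest in 6 (17.6%), against 41.1%. At day 2 it was the highest in 17 (50%), against 35.5%, and the lowest in 13 (38.2%), against 51.2%. At day 6 it was the highest in 11 (32.4%), against 36.8%, and the lowest in 21 (61.8%), against 49.8%. The endothelial and smooth muscle markers were also lowest in unfractured pool 3 among the unfractured pools. The part of leukocyte, endothelial and smooth muscle RNA, and of the share of probes detected, in the interferon gene differences was not tested. In sorted pools, fewer cells of a type and less RNA per cell cannot be told apart.

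Leaving out the 3 leukocyte-rich pools, a choice made after the values had been seen, left 2 pools per group. Unfractured pool 3 was the lowest of its group in 22 of 34 genes, and day 2 pool 1 the highest in 17. Day 6 pool 1 was the lowest in 21, which works the other way. Without the former pools the change of such genes moves downward by construction. The counts below, and the calls of single genes in that fit, are therefore no separate support. Unfractured pool 1, which stayed, had a neutrophil marker mean of 12.28, against 9.43 to 10.11 in the fractured pools that stayed. At day 2, 17 of 34 genes then passed as lower, against 9.99% of all genes, and 1, Isg20, as higher, against 10.8%. At day 6, 16 of 34 passed as lower, against 14.1% of all genes, and Isg20 again as higher, against 16.4%. Between day 6 and day 2, 0 passed, against 2.44% of all genes higher and 1.04% lower. Median log2 changes were -1.06 at day 2 and -0.80 at day 6. Leaving out unfractured pool 3 alone gave 11 genes at day 2, all lower, where 9.17% of all genes passed, and 11 at day 6, 10 of them lower, where 15.6% of all genes passed.

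In the fit without those 3 pools Ifi47 fell at both times, with log2 changes of -2.54 ± 0.23 at day 2 (limma adjusted p = 0.0176) and -2.60 ± 0.23 at day 6 (0.00328). Mx2 had -2.76 ± 0.23 at day 2 and -2.56 ± 0.23 at day 6, and Irf8 had -2.30 ± 0.32 and -2.86 ± 0.32. Irf9 had -1.57 ± 0.17 and -1.45 ± 0.17, Isg15 had -1.80 ± 0.25 and -1.41 ± 0.25, and Cxcl10 had -1.80 ± 0.17 and -1.09 ± 0.17. All these genes passed at both times in that fit. With all 9 pools only Ifi47 passed, at day 6, and the adjusted p-values (limma) of Isg15 were 0.474 and 0.693. Cxcl9 fell, by -1.92 ± 0.33, at day 2 (limma adjusted p = 0.0269) and had -0.12 ± 0.33 at day 6 (0.797). Isg20 rose at both times (limma adjusted p = 0.0223 at day 2 and 0.00420 at day 6). It was not detected in either unfractured pool of that fit, so its level has only a bound there. It averaged 6.98 in day 2 pools and 7.90 in day 6 pools against 5.05 in unfractured pools, at least 1.55-fold higher at day 2 and at least 2.92-fold higher at day 6 than the lowest detected signals of the unfractured arrays.

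The leukocyte-rich pools alone, 1 per group and so without replicates, gave median log2 differences of -0.07 at day 2 and -0.47 at day 6. There the difference had the opposite sign to that of the other 6 pools in 17 of 34 genes at day 2 and in 15 at day 6, against 45.7% and 44.8% of all genes. Ifi47, Gbp2, Igtp, Mx2, Rtp4, Irf9, Irf1, Gbp3, Ifit2 and Cxcl9 were lower after fracture in both sets of pools at both times. The share of all genes with that pattern was not counted. At day 2 the leukocyte-rich pools differed by -1.99 for Ifi47, -2.15 for Gbp2 and -1.43 for Igtp, and by only -0.07 for Irf9. They differed by -1.23 for Rtp4, which was not detected in the leukocyte-rich pools of day 2 and day 6. In the leukocyte-rich pools Bst2, Oas2, Irf7, Irf8, Rsad2, Tap1, Irgm1 and Isg15 were higher after fracture at both times. At day 2 these genes were higher by 2.28, 1.74, 1.35, 1.26, 0.94, 0.86, 0.36 and 0.22, in that order. Oas2 and Irf7 were not detected in the leukocyte-rich unfractured pool, so the sizes of their differences are uncertain.

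**Figure D5:**
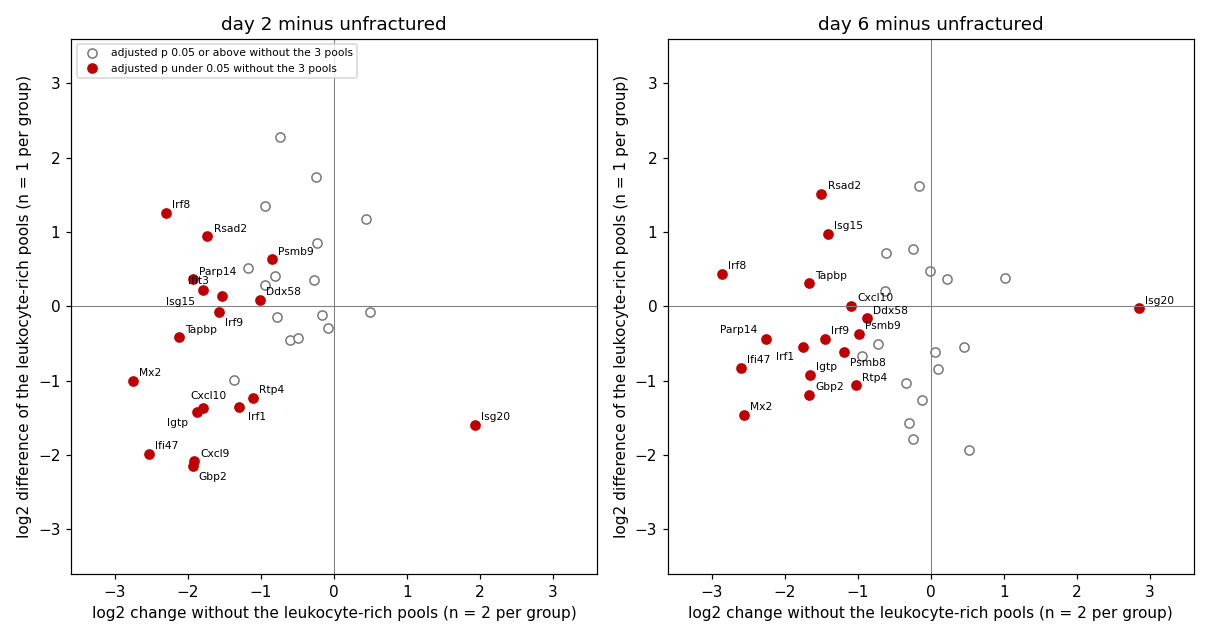
Log2 change of each of the 34 genes without the leukocyte-rich pools (horizontal axis, 2 pools per group) against the log2 difference between the leukocyte-rich pools (vertical axis, 1 pool per group), for day 2 minus unfractured and day 6 minus unfractured. Filled red points passed without the leukocyte-rich pools. In both panels Ifi47, Gbp2, Igtp, Mx2, Rtp4, Irf9, Irf1, Gbp3, Ifit2 and Cxcl9 are below 0 on both axes. Irf7, Irf8, Irgm1, Oas2, Isg15, Rsad2 and Bst2 are below 0 on the horizontal axis only in both panels.

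Other genes of the pathway, 135 in a list of ligands, receptors, kinases, sensors, further effectors, antigen-presentation genes and inhibitors, were examined in the same fit, and 84 passed the detection filter. In each comparison 0 of the 84 passed. Every day 2 pool was below every unfractured pool in 8 (9.52%, against 7.69% of all genes) and above in 1 (1.19%, against 10.9%). Every day 6 pool was below in 19 (22.6%, against 11.8%) and above in 3 (3.57%, against 14.2%). Median log2 changes were -0.10 at day 2 and -0.32 at day 6. Of 13 interferon and related ligand genes 1, Ifna1, passed the filter, and Ifnb1 and Ifng did not.

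Of the receptors, Ifnar1 did not pass the detection filter. Ifnar2 was at 8.48, 8.89 and 6.60 in unfractured pools, 8.49, 8.11 and 8.21 in day 2 pools, and 8.00, 7.67 and 7.84 in day 6 pools, and its groups overlapped apart from day 6 against day 2. The gamma receptor chains Ifngr1 and Ifngr2 had log2 changes of 0.17 ± 0.32 and -0.33 ± 0.61 at day 2, and of -0.40 ± 0.32 and -0.77 ± 0.61 at day 6. Jak1, the kinase shared by both receptor types, was at 9.76, 9.90 and 9.78 in unfractured pools, 8.91, 9.29 and 8.77 in day 2 pools, and 9.17, 8.69 and 8.21 in day 6 pools. All its fractured pools lay below the unfractured ones, with log2 changes of -0.82 ± 0.29 (limma adjusted p = 0.255) and -1.13 ± 0.29 (0.0750). Jak2 had -0.31 ± 0.40 and -0.45 ± 0.40, and Tyk2 had 0.12 ± 0.29 and 0.30 ± 0.29, with overlapping groups.

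Of the 34 genes 10 had more than 1 probe that passed the filter. In each of the 10 all probes gave a log2 difference below 0 at day 2 and at day 6. At day 2 the probes of 6 of these genes, Irf1, Irgm1, Gbp3, Ifit2, Ifit3 and Oasl2, disagreed on whether the groups overlapped, and at day 6 those of 1, Ifit2, did. Gbp2 and Gbp3, the IFIT genes and the OAS genes each have near relatives, and where their probes could bind a relative their values are uncertain.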

How the data were processed

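Total RNA of sorted cells was amplified, biotinylated and hybridised to Illumina bead arrays, per the labels' protocols. The deposited table holds non-normalised probe intensities on a linear scale and, per the file headers, a detection p-value for each probe and array; GenomeStudio is named in the submitters' processing notes. The authors' deposited value table holds intensities with nearly equal medians between arrays and was used as an alternative. Background correction (normexp, with the negative control levels estimated through the detection p-values, and an offset of 16), quantile normalisation and log2 transformation used neqc of limma 3.58.1 in R 4.3.3. The filter kept 14519 of 25697 probes, those detected at p under 0.05 on 3 or more arrays, the brightest probe with 1 symbol stood for each gene, and 10073 genes were fitted with lmFit and eBayes over the 3 groups, with Benjamini-Hochberg adjustment over all of them. The steps were tested on simulated data.

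The number of arrays limits the precision. The genes and lists were chosen with earlier results of these data known. Values per pool are given for genes that passed, for the 10 with the largest change in any comparison and for named pathway regulators; values for Gbp3, Irf1, Ifit3, Rtp4, Psmb8, Psmb9, Bst2, Trim30a and the dimmer Irgm1 probe were added after they had been seen. Deviations of same-numbered pools from their group means correlated at 0.51 to 0.63 between day 6 and day 2, and at -0.31 to 0.40 between either and the unfractured pools. Differently numbered pools correlated at -0.63 to 0.57 between day 6 and day 2. The 0.57 was that of day 6 pool 2 with day 2 pool 3, within the range of the same-numbered pools. The labels name no shared litter or day, so any pairing of day 6 with day 2 rests on these values alone. The fit reported has no block for the pool number; the blocked fit was an alternative.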

Additional observations from a re-analysis of the deposited data

How the results depend on the processing

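The alternatives were 9 planned settings, leaving out each pool in turn, and leaving out the 3 leukocyte-rich pools, which was chosen after seeing the data. At day 2 the count of genes that passed was 0 to 11 with 1 pool left out, with 11 reached without unfractured pool 3, and 18 without the leukocyte-rich pools; it was 0 under the other settings. At day 6 it was 0 under median scaling, with the replicate block, with sex as a covariate and in a fit of the 2 groups compared, 2 with the mean of the kept probes (Irf1 and Ifi47), 0 to 11 with 1 pool left out and 17 without the leukocyte-rich pools. Between day 6 and day 2 it was 1 (Cxcl9) in a fit of the 2 groups compared and 0 to 1 with 1 pool left out. With the replicate block, 0 genes passed in each comparison, and it changed no call other than that of Ifi47 at day 6 (limma adjusted p = 0.0568). The median log2 change ran from -0.87 to -0.47 at day 2, from -0.92 to -0.45 at day 6 and from -0.01 to 0.18 between day 6 and day 2 with 1 pool left out. Under median scaling the medians were 0.13 and 0.24 at day 2 and day 6, where the medians of all genes were 0.83 and 0.72. No gene that passed changed direction. Of 636 values of single genes under the alternatives in each comparison, 32, 37 and 48 that did not pass changed sign, 15, 15 and 2 of them under median scaling. Of all genes at day 6, 284 passed, against 139 in a fit of the 2 groups compared, 53 to 1568 with 1 pool left out and 3068 without the leukocyte-rich pools; at day 2 it was 0, against 924 without unfractured pool 3. The causes were not tested. Genes near the background of the arrays, such as Isg20, Rtp4 and Socs1, had the least certain levels, and no setting adds replicates to the 3 pools per group.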

Other observations

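Of 16 antigen-presentation genes outside the set that passed the filter, 7 had the leukocyte-rich pool as the highest in every group (12.3% of all genes), namely H2-Aa, H2-Ab1, H2-Eb1, Cd74, H2-D1, Psme1 and Calr. H2-Ab1, a class II chain, was at 8.15, 10.08 and 11.27 in unfractured pools, 12.86, 8.16 and 9.49 in day 2 pools, and 13.84, 10.03 and 10.69 in day 6 pools. Cd74, the invariant chain that escorts class II molecules, was at 7.35, 9.53 and 10.94 in unfractured pools, 12.97, 8.09 and 9.03 in day 2 pools, and 13.56, 8.98 and 9.85 in day 6 pools. In both genes the leukocyte-rich pool was the highest of its group, and the log2 changes had adjusted p-values (limma) of 0.526 or more against unfractured pools. B2m, the light chain of class I and not among the 7, was at 14.73, 15.03 and 14.76 in unfractured pools, 14.99, 13.88 and 13.68 in day 2 pools, and 15.14, 14.40 and 14.33 in day 6 pools.

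Tgtp1, an immunity-related GTPase outside the set, was at 8.37, 9.01 and 7.56 in unfractured pools, 5.09, 5.98 and 5.55 in day 2 pools, and 6.95, 6.05 and 5.64 in day 6 pools. All its fractured pools lay below all unfractured pools, as for Ifi47 and Igtp, with adjusted p-values (limma) of 0.139 at day 2 and 0.0511 at day 6. It was detected in 1 day 2 pool, 2 day 6 pools and 3 unfractured pools, so the size of the difference is uncertain and no fold is given. Irgm2, another of this family, was at 11.42, 11.85 and 9.47 in unfractured pools, 8.52, 9.51 and 9.66 in day 2 pools, and 8.91, 9.47 and 9.71 in day 6 pools, with unfractured pool 3 below some fractured pools. The genes in these paragraphs were chosen after their values had been seen.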
